A study of Homo sapiens with 2 samples.

Results

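The plasma membrane amino acid transporters described here are 10 genes whose products bring amino acids into the cell or exchange them across its surface. They were chosen by name and grouped by main substrate, from earlier results of the comparison of RT-R-MDA-MB-231 with MDA-MB-231 cells, so the measured values of that comparison bear on the choice and are given as a description. All 10 symbols were found, each on 1 row, among 24462 gene symbols in the count tables. The comparison asks how transcript levels in a radiotherapy-resistant derivative differ from those of the line it came from. The library of MDA-MB-231, a long-established human cell line from a triple negative breast cancer, is called parental. RT-R-MDA-MB-231 (RT-R) was derived from it by repeated X-ray doses of 2 Gy that added up to 50 Gy. Both lines grew in RPMI medium with 10% fetal bovine serum and antibiotics, and neither label gives a time since the last irradiation or the number of clones. Each line had 1 library made with a 3' tag kit, so most reads come from near the 3' end of a transcript and counts do not grow with its length.

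Amino acids cross the plasma membrane through solute carrier (SLC) proteins of several families. Members of the SLC7 family that exchange large neutral amino acids, or cystine for glutamate, work as light chains bound by a disulfide bridge to the heavy chain SLC3A2, also called 4F2hc or CD98, which carries them to the cell surface. Sodium-coupled carriers of the SLC1 and SLC38 families load the cell with glutamine, alanine and serine, which the exchangers can then trade for leucine and other essential amino acids. Several of these genes are known targets of the transcription factor ATF4, which is made when amino acids run short or when other stresses phosphorylate eIF2 alpha, and SLC7A11 is also a known target of the antioxidant factor NRF2.

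The parental library held 9255008 counts and the RT-R library 10014804. Counts were put on one scale by TMM factors (trimmed mean of M-values), under which the RT-R library was 1.12 times the size of the parental one. With 1 library per line there is no replicate check, so no p-value is given. Brackets after a fold give a 95% interval for counting error within these libraries only; PCR copies of a molecule are counted as separate reads. ESR1 and PGR, the hormone receptor genes that triple negative cells lack, had at most 1 count in a library, and ERBB2 had 230 parental and 174 RT-R counts. All 5 mesenchymal-like line markers were measured. VIM (4310 and 8454 counts), CD44 (2560 and 3129) and AXL (6995 and 9663) were higher in RT-R. CAV1 (4816 and 4001) and MSN (11258 and 8165) were lower, and none of the 5 reached 2-fold. Of 8 fibroblast markers, 5 were at or under 3 counts in both libraries, and the list summed to 113 parental and 155 RT-R counts. Of 6 blood and immune markers, 4 were at or under 3 counts, with PTPRC and CD3E at 0, and the sum was 351 and 455, nearly all from CD68. The 5 endothelial markers summed to 224 and 56 counts, nearly all from PECAM1. Within these lists single genes moved: PECAM1 fell from 223 to 50 counts and the fibroblast marker THY1 went from 2 to 47, 21.1-fold higher (5.52 to 179). The fibroblast marker PDGFRB had 52 and 28 counts, 2.07-fold lower (1.28 to 3.41). The 8 luminal epithelial markers summed to 7408 and 7670. Of these, XBP1 had 597 and 1545 counts, 2.32-fold higher (2.11 to 2.55), and TFF1 had 34 and 0. A part of these markers in the transporter values was not tested.

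Of the 10 transporters, 6 were at least 2-fold higher in the RT-R library, and 0 were at least 2-fold lower. A gene was called if 1 of the libraries gave it 20 or more counts, its log2 ratio (of scaled counts plus 0.5) passed 2-fold and its interval excluded a ratio of 1. Of 12644 genes that met the count minimum, 6.89% were called higher and 3.97% lower by this rule. The 6 were SLC7A11, SLC3A2, SLC7A5, SLC1A5, SLC1A4 and SLC7A1. The other 4, SLC38A1, SLC38A2, SLC7A6 and SLC6A9, lay between 1.05-fold and 1.46-fold. The log2 ratios of the 10 ran from 0.06 to 2.18 with a median of 1.32, against a median of -0.01 over all measured genes. At 1.5-fold, where 13.7% of measured genes were higher and 11.9% lower, the same 6 genes were called. At 4-fold, where 2.31% were higher and 0.53% lower, SLC7A11 and SLC1A4 were called. The members were picked with this contrast in view, so nothing is read from these shares.

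**Figure D1:**
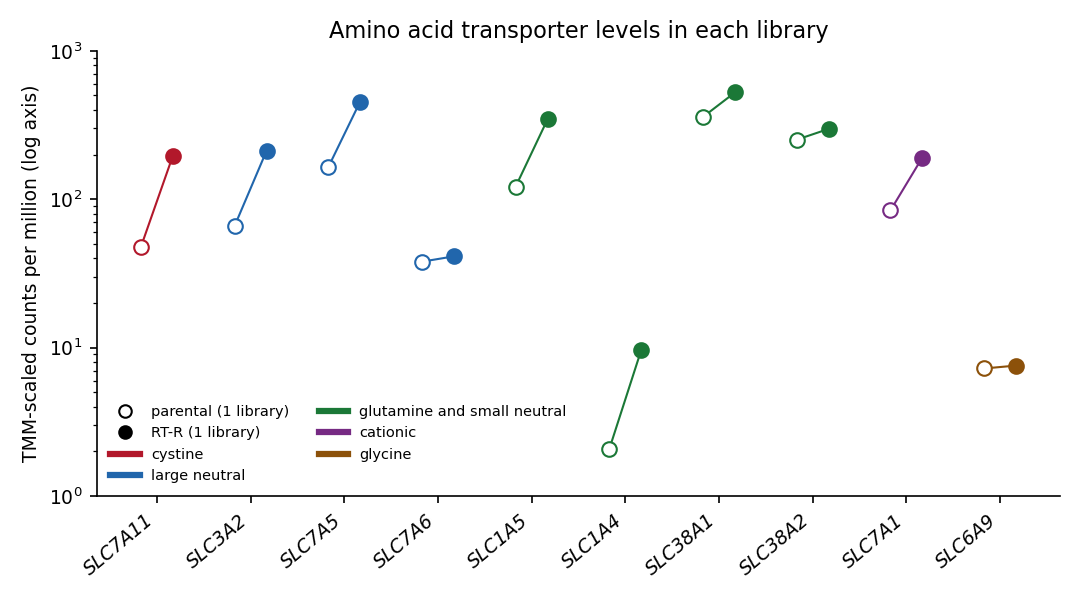
Level of each transporter in the parental library (open circles) and the RT-R library (filled circles), in TMM-scaled counts per 1000000 (CPM) on a log axis, coloured by main substrate, with 1 library per line and no error bar. All 10 filled circles lie above their open circles, by 4.62-fold for SLC1A4 and by 1.05-fold for SLC6A9.

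The sequences around the start sites are shown next, searched for the short motifs by which ATF4 and NRF2 are known to bind DNA. Several of the genes are known ATF4 targets and all were chosen with earlier results in view. The match counts are therefore not independent of the choice and are given as a description. RefSeq promoter windows of GRCh38.p14, from 250 bases before to 50 bases after a start site, were found for 9 of the 10 genes, 15 windows in all. SLC7A11 has no window in that table. The C/EBP-ATF composite motif, searched on both strands as TGATGNAAN, occurred in 5 of the 9 genes, in 1 window each. It occurred in 3.61% of all 35116 windows, in 4.45% of the 27305 genes that have one and in 2.5% of measured genes with a window. Among 23 other plasma membrane amino acid transporters with a window, 1 had a match. The full list of these others has 32 genes, of which 16 were at or under 3 counts in both libraries. The antioxidant response core, searched as TGACNNNGC on both strands, also occurred in 5 of the 9 genes, and in 5 of the 15 windows. It occurred in 13.3% of all windows, in 16.1% of all genes and in 19.4% of measured genes with a window. Among the other transporters, 2 of 23 had it. No match of one motif overlapped a match of the other in these windows.

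The 5 stretches with the C/EBP-ATF composite are shown as 30 bases of the gene's own strand, with the match in capitals. A match on the opposite strand reads as the reverse complement.
SLC1A5: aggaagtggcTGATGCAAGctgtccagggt
SLC1A4: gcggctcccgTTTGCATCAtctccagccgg
SLC3A2: gtaatgtgcaggactcCTTACATCAgctcc
SLC7A1: ggcgcactgcTGATGAAACctggcgccgga
SLC38A1: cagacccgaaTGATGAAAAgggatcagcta
The brackets below give the coordinates of each stretch of 30 bases and the strand of its gene, not those of the match. The SLC1A4 and SLC3A2 matches are on the strand opposite to the gene. Counting the start site as position 1, with no position 0, the SLC1A5 match (chr19:46784892-46784921, minus strand) begins at position -97 of the most downstream of 3 listed starts. The SLC1A4 match (chr2:64989381-64989410, plus strand) begins at -8, and the SLC38A1 match (chr12:46266501-46266530, minus strand) at -4. The SLC3A2 match (chr11:62881719-62881748, plus strand) begins at 37, and the SLC7A1 match (chr13:29595662-29595691, minus strand) at 8, both past the start. Of these 5 genes, SLC1A5, SLC1A4, SLC3A2 and SLC7A1 were called higher and SLC38A1 was not. SLC7A5 was called higher and had no match in its single window. SLC38A2, SLC7A6 and SLC6A9 were not called and had no match either.

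The antioxidant response core is shown for SLC3A2 and SLC7A5, the heavy chain and a light chain that was called higher. It is also shown for SLC7A6, a light chain that was not called.
SLC3A2: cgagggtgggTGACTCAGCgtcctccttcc
SLC7A5: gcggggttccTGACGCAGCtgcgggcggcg
SLC7A6: cggcggcgggTGACGTGGCggggcggggcc
These lie at chr11:62881652-62881681 on the plus strand, chr16:87869490-87869519 on the minus strand and chr16:68264487-68264516 on the plus strand. The matches begin at -37, -2 and -29. SLC7A1 had a match at -85, SLC1A5 one at -111 of another start, and SLC7A6 a further one at -197. The SLC3A2 window is the only SLC3A2 start with either motif and holds both, so its 250 bases before the start (chr11:62881449-62881698, plus strand) are given in full, with the antioxidant response core in capitals.
SLC3A2: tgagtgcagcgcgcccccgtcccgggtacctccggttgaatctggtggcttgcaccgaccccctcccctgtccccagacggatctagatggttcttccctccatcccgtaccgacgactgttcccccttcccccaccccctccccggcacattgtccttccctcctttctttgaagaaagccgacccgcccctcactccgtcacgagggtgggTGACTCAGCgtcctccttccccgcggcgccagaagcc
A match is a run of letters and does not show that a factor binds there. Over all measured genes with a window, the C/EBP-ATF composite occurred in 33 of 589 genes called higher (5.60%) and in 205 of the 8801 others (2.33%). The antioxidant response core occurred in 22.2% and 19.2% of these genes. The 33 include the members SLC1A5, SLC1A4, SLC3A2 and SLC7A1, and a part of either factor in the ratios was not tested.

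**Figure D2:**
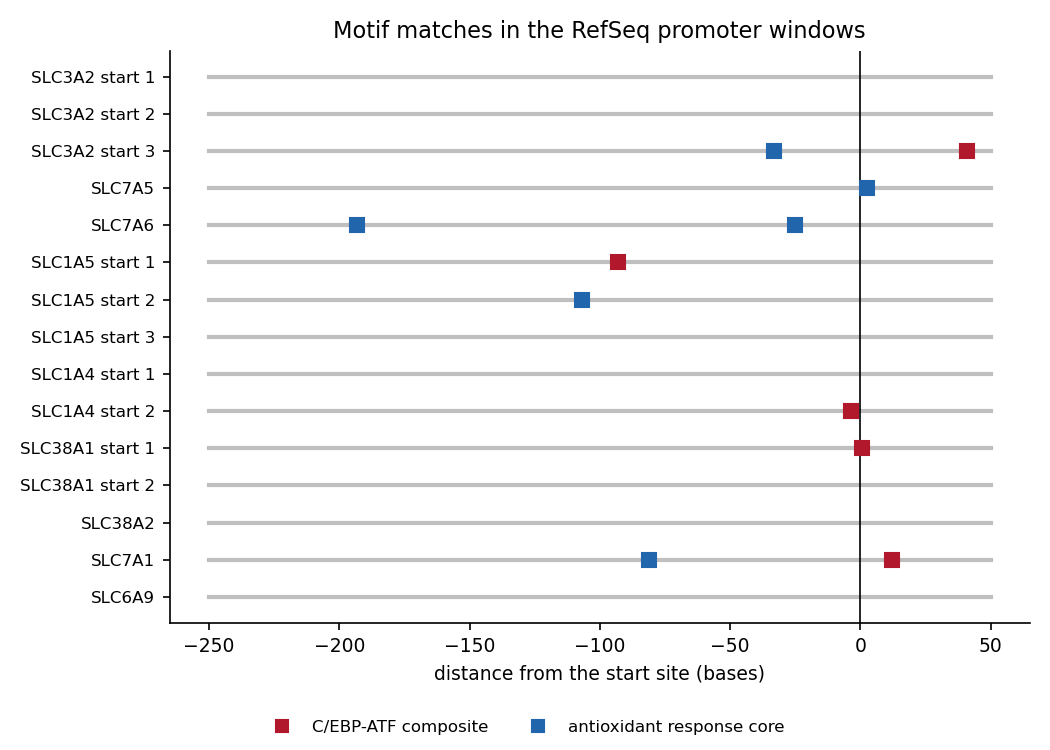
Motif matches in the 15 RefSeq promoter windows of 9 transporter genes, placed by distance in bases from the start site, with starts of 1 gene numbered by rising genome position. The C/EBP-ATF composite (red) lies in 5 windows and the antioxidant response core (blue) in 5, and the third SLC3A2 start and the SLC7A1 start hold both.

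Cystine uptake was represented by SLC7A11, the light chain xCT, which takes in cystine in exchange for glutamate and so supplies cysteine for glutathione. It had 436 parental counts and 1990 RT-R counts, or 47.8 and 196 TMM-scaled CPM. The RT-R library was 4.09-fold higher (3.69 to 4.55), a log2 ratio of 2.03. The antisense gene SLC7A11-AS1 shares 276 exonic bases with it in the GENCODE v29 annotation and had 15 and 26 counts, far fewer than SLC7A11.

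Genes of cysteine use were counted by the same rule. Over all measured genes it called 6.89% higher and 3.97% lower, shares that stand beside this list and each list below. Of 10 measured genes of cysteine and glutathione synthesis, 2 were called higher, 0 were called lower and the median log2 ratio was -0.13. CHAC1, which degrades glutathione, had 86 and 676 counts and was 7.05-fold higher (5.62 to 8.93). CTH, which makes cysteine from cystathionine, had 52 and 402 counts and was 6.93-fold higher (5.18 to 9.44). The subunits of the rate-limiting enzyme of glutathione synthesis, chosen for mention after their values were seen, had 128 and 88 counts for GCLC and 906 and 809 for GCLM.

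Large neutral amino acid exchange was covered by the heavy chain SLC3A2 and the light chains SLC7A5 and SLC7A6. SLC3A2 had 603 and 2149 counts, 66.1 and 211 CPM, and was 3.20-fold higher in RT-R (2.92 to 3.50). SLC7A5, the light chain LAT1 that imports leucine, phenylalanine and tryptophan, had 1500 and 4623 counts, 165 and 455 CPM. It was 2.76-fold higher (2.61 to 2.93). The pseudogenes SLC7A5P1 and SLC7A5P2 had 0 and 16 parental counts and 1 and 32 RT-R counts, so few of the reads lay on these copies. SLC7A6, the light chain y+LAT2 that exports cationic amino acids against neutral ones, had 346 and 419 counts, 38.0 and 41.2 CPM. Its ratio was 1.09 (0.94 to 1.26), an interval that includes equal expression. SLC7A6OS runs on the opposite strand, shares 3371 of its 4189 exonic bases with SLC7A6 and had 224 and 239 counts. Since the use of strand in counting is not given in the sources used here, the reads of this pair cannot be told apart with certainty.

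Heavy and light chains were then set against each other by the ratio of their folds, which does not depend on library scaling. The fold of SLC3A2 was 1.16 times that of SLC7A5 (1.04 to 1.29). The fold of SLC7A11 was 1.48 times that of SLC7A5 (1.31 to 1.67) and 1.28 times that of SLC3A2 (1.11 to 1.47). SLC7A5 and SLC7A6 stood further apart, with a fold for SLC7A5 that was 2.55 times that of SLC7A6 (2.17 to 2.98). Reads of SLC7A6OS may be among the SLC7A6 counts, here and in the sum that follows, and the intervals do not cover this. The light chains known to pair with SLC3A2, which are SLC7A5, SLC7A6, SLC7A7, SLC7A8, SLC7A10 and SLC7A11, summed to 2333 parental and 7077 RT-R counts. That sum was 2.72-fold higher in RT-R (2.60 to 2.85), somewhat under the 3.20-fold of the heavy chain.

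The make-up of the light chain counts differed between the libraries. Only the change of each share from one library to the other is read, with Wilson 95% intervals. SLC7A11 made up 18.7% of the light chain counts in the parental library (17.2 to 20.3) and 28.1% in RT-R (27.1 to 29.2). SLC7A6 went from 14.8% (13.4 to 16.3) to 5.92% (5.39 to 6.49). SLC7A5 was 64.3% (62.3 to 66.2) and 65.3% (64.2 to 66.4), intervals that overlap. By these counts the cystine exchanger had a larger share and y+LAT2 a smaller one in the RT-R library, while the share of LAT1 differed by less than its counting error. The SLC7A6 counts may include reads of SLC7A6OS, which the intervals do not cover. SLC7A7 had 46 and 36 counts, SLC7A8 had 0 and 8, and SLC7A10 had 5 and 1.

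**Figure D3:**
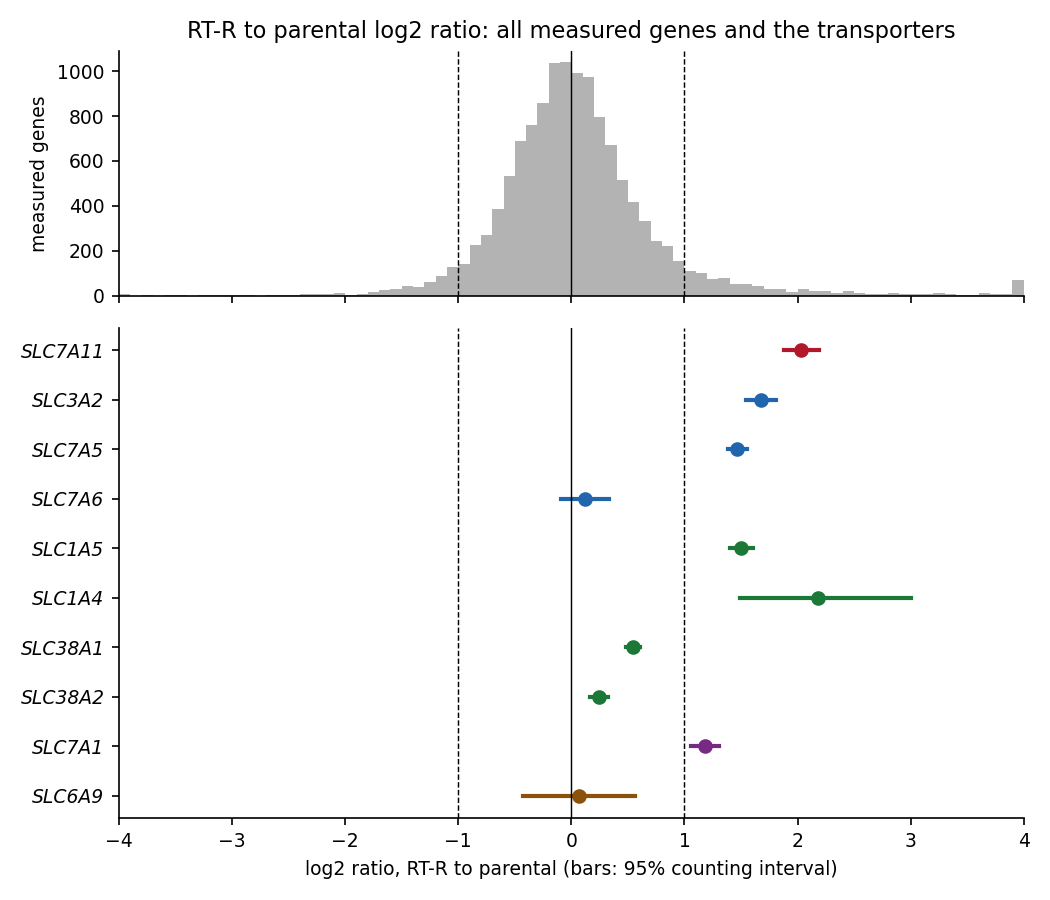
Upper panel, number of measured genes in each 0.1-wide bin of the RT-R to parental log2 ratio, with values beyond 4 or -4 put in the end bins. Lower panel, log2 ratio of each transporter with its 95% counting interval as a bar, coloured by substrate as in the plot of levels, with dashed lines at 2-fold. The intervals of SLC7A6 and SLC6A9 include 0, and the 6 called genes lie beyond the right dashed line.

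Glutamine and small neutral amino acid transport split by family. The SLC1 members, which exchange alanine, serine and cysteine with sodium, were called higher. SLC1A5, the glutamine exchanger ASCT2, had 1110 and 3510 counts, 122 and 345 CPM, and was 2.84-fold higher (2.65 to 3.04). SLC1A4, the related carrier ASCT1, which prefers alanine, serine and threonine, had 19 and 98 counts, 2.08 and 9.64 CPM. It was 4.62-fold higher (2.81 to 8.01), with the widest interval of the called members. SLC1A4 reached the count minimum through the RT-R library alone, so it could enter the comparison only as a higher gene. At a minimum of 100 counts it drops out, and 5 members are called.

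The SLC38 members, which take up glutamine together with sodium, were not called. SLC38A1 (SNAT1) had 3269 and 5323 counts, 359 and 524 CPM, a ratio of 1.46 (1.40 to 1.53). SLC38A2 (SNAT2), which is known to be induced when amino acids are withdrawn, had 2295 and 3024 counts, 252 and 297 CPM, a ratio of 1.18 (1.12 to 1.25). Both intervals excluded equal expression and neither ratio reached 2-fold. The fold of SLC1A5 was 2.40 times that of SLC38A2 (2.20 to 2.62), and that of SLC38A1 was 1.24 times that of SLC38A2 (1.15 to 1.33). Between SLC1A4 and SLC1A5 the ratio of folds was 1.63, with an interval (0.99 to 2.84) that includes equal folds at the low SLC1A4 counts. SLC1A5 and SLC7A5, the glutamine exchanger and the leucine exchanger, had a ratio of folds of 1.03 (0.94 to 1.12). Summed over the 4 genes of this group, counts went from 6693 to 11955, a ratio of 1.60 (1.55 to 1.65). The 3 large neutral members together went from 2449 to 7191, a ratio of 2.63 (2.51 to 2.76).

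Genes that use glutamine differed singly. Of 15 measured genes of glutamine and asparagine metabolism, 2 were called higher, 0 were called lower and the median log2 ratio was -0.11. ASNS, which makes asparagine with nitrogen from glutamine, was 6.40-fold higher (5.91 to 6.94). GPT2, a mitochondrial alanine transaminase, had 691 and 2355 counts and was 3.06-fold higher (2.81 to 3.33).

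Cationic amino acid uptake was represented by SLC7A1, the carrier CAT1 for arginine, lysine and ornithine, which works without SLC3A2. It had 766 and 1939 counts, 84.0 and 191 CPM, and was 2.27-fold higher in RT-R (2.09 to 2.47). SLC7A1 lies on chromosome 13 in a stretch that was itself higher: the 15 measured genes on each side had a median log2 ratio of 0.56. The log2 ratio of SLC7A1 was 1.18, and 0.62 after that median was subtracted, below the 2-fold rule. The part of the stretch in the SLC7A1 value was not tested. For the other 9 members the neighbour medians lay between -0.22 and 0.20, and the subtraction changed no call. In arginine and polyamine metabolism, 1 of 10 measured genes was called higher and 1 lower, with a median of -0.13. ASS1, which makes the precursor of arginine from citrulline, had 50 and 610 counts and was 10.9-fold higher (8.19 to 14.9). SRM, spermidine synthase, went the other way with 1429 and 793 counts, 2.01-fold lower (1.84 to 2.19). SRM sat at the 2-fold limit: it was 1.95-fold lower under total counts and 1.96-fold under the upper quartile, and its call was lost under all 3 other scalings.

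Glycine uptake was represented by SLC6A9, the sodium- and chloride-coupled carrier GLYT1. It had 66 and 77 counts, 7.24 and 7.57 CPM, a ratio of 1.05 (0.74 to 1.48). For counting error, this interval includes equal expression and excludes a 2-fold difference either way. CCDC24 overlaps SLC6A9 on the opposite strand, shares 331 exonic bases with it and had 64 and 72 counts, close to those of SLC6A9. Which of the reads came from SLC6A9 cannot be told apart without strand. Among 7 measured genes of glycine and serine metabolism, 2 were called higher, 0 lower, with a median log2 ratio of 0.36. PSAT1 and PHGDH, enzymes of serine synthesis, were 5.75-fold (5.22 to 6.35) and 204-fold (36.3 to 8109.7) higher, the latter from 1 parental count. PHGDH met the count minimum through the RT-R library alone, so it could enter only as a higher gene.

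Of 32 other plasma membrane amino acid transporters, 16 were at or under 3 counts in both libraries and 9 met the count minimum, with 2 called higher and 2 lower. Their median log2 ratio depended on the count minimum: it was -0.10 here, 0.77 at 100 or more counts and 0.16 with no minimum, and their mean was 0.16. Among these 9, SLC43A1, the facilitated carrier LAT3 for branched-chain amino acids, had 212 and 575 counts and was 2.43-fold higher (2.07 to 2.86). SLC1A7, a glutamate transporter, had 6 and 41 counts and was 6.13-fold higher (2.59 to 17.7). It reached the count minimum through the RT-R library alone, so it could enter only as a higher gene. SLC6A14, a broad neutral and cationic carrier on the X chromosome, was 2.38-fold lower at 32 and 15 counts (1.25 to 4.73). Its chromosomal neighbours had a median log2 ratio of -0.83, and its own went from -1.22 to -0.39 after subtraction, which ended the call. The part of the neighbours in that value was not tested. SLC38A4, a relative of SLC38A2, was 2.63-fold lower at 33 and 14 counts (1.37 to 5.32). SLC38A4 and SLC6A14 reached the count minimum through the parental library alone, so they could enter only as lower genes. Lysosomal amino acid and dipeptide transporters had 0 of 7 called in either direction and a median of 0.28.

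Genes of the response to amino acid shortage and genes that sense amino acids were compared as lists of their own. In the list of the GCN2 kinase and its effector ATF4, 7 of 14 genes were called higher and 0 lower, with a median log2 ratio of 0.95. The gene of GCN2 itself, EIF2AK4, chosen for mention after its values were seen, was not called. It had 730 and 673 counts, a ratio of 0.83 (0.74 to 0.92). NUPR1, a stress-induced chromatin protein, had 34 and 366 counts and was 9.65-fold higher (6.78 to 14.2). TRIB3, a pseudokinase induced by ATF4, had 239 and 1269 counts and was 4.76-fold higher (4.14 to 5.49). ATF4 itself had 3735 and 9763 counts and was 2.34-fold higher (2.26 to 2.43). Its log2 ratio of 1.23 became 0.93 when the median of its neighbours (0.30) was subtracted, below the 2-fold rule. With the same subtraction CEBPB was at 0.82 and CEBPG at 0.82, so 4 of the 14 genes were called higher and the list median was 0.82. The part of the neighbours in these values was not tested. Of 16 genes that carry the amino acid signal to mTORC1, the growth kinase complex that leucine activates, 1 was called higher and 0 lower, with a median of -0.10. That gene was SESN2, the leucine sensor sestrin 2, 4.06-fold higher (3.54 to 4.68). Branched-chain amino acid breakdown had 0 of 10 called and a median of 0.10. These lists were picked by role but with earlier results known, and their counts are set beside the same 6.89% and 3.97% over all measured genes.

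**Figure D4:**
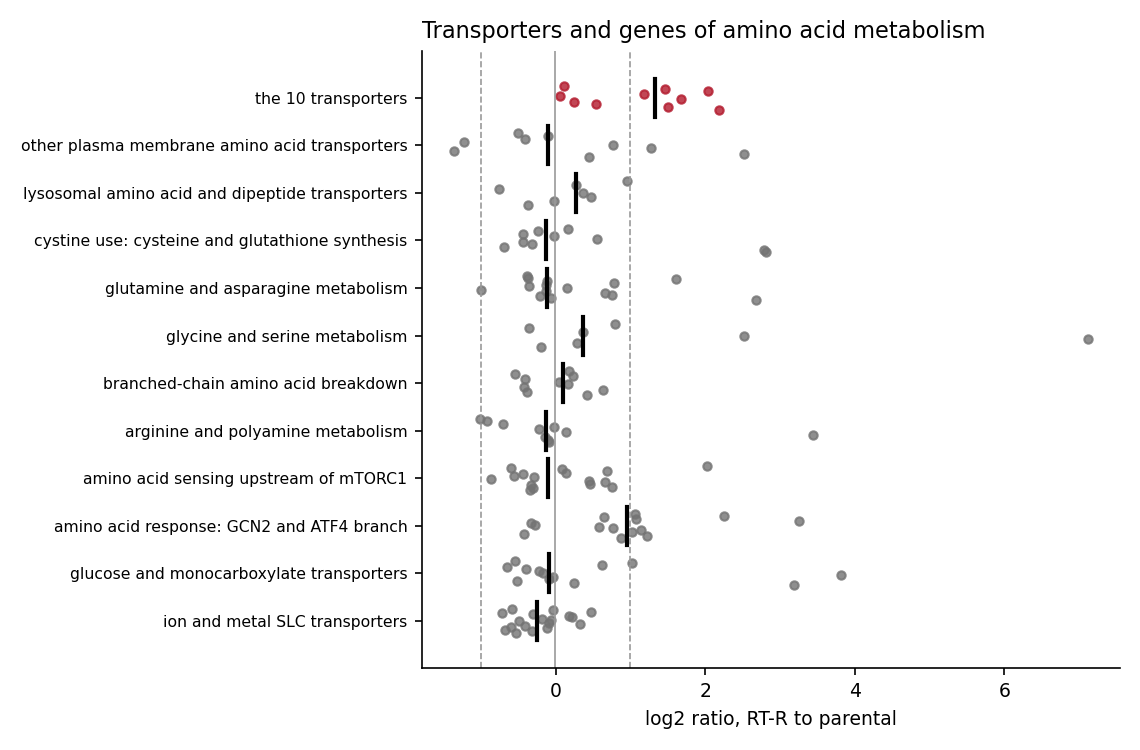
RT-R to parental log2 ratio of each measured gene (dots) in the 10 transporters (red) and in 11 other lists, with a black bar at each list's median, a grey line at the median of all measured genes and dashed lines at 2-fold. The transporters have a median of 1.32 and the GCN2 and ATF4 list 0.95, while the other lists lie between -0.25 and 0.36.

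Scaling had little effect on the transporters. Under total counts, the median of ratios and the upper quartile, each of the 10 log2 ratios stayed above 0 and on its side of the 2-fold rule. Over these and the other alternatives that give a value for single genes, SLC7A11 lay between 2.02 and 2.22 and SLC3A2 between 1.67 and 1.72. SLC7A5 lay between 1.26 and 1.51 and SLC1A5 between 1.39 and 1.55. SLC1A4 ranged from 1.96 to 2.36.

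**Figure D5:**
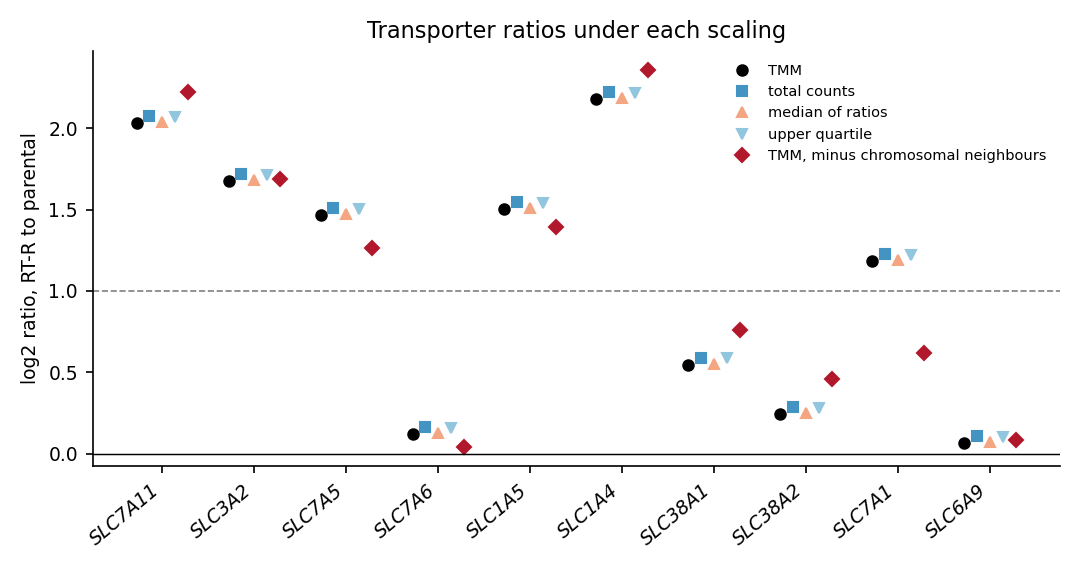
Log2 ratio of each transporter under TMM, total counts, median of ratios and upper quartile scaling, and under TMM after subtraction of the median of 15 measured chromosomal neighbours on each side, with a dashed line at 2-fold. SLC7A1 drops from 1.18 to 0.62 under the subtraction, and the other called genes stay above the line.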

How the data were processed

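For each of the 2 libraries the authors deposited a table of unnormalized read counts by gene symbol. The submitters' processing notes name hg19 as the build and list Bowtie2, bedtools and bcl2fastq 2.20.0.422. Settings, annotation, strand use and multi-mapping are not stated there. Repeated symbols among 25737 rows were summed. TMM and upper-quartile factors came from edgeR 4.0.16 and median-of-ratios factors from DESeq2 1.42.0 (R 4.3.3). Log2 ratios used a pseudocount of 0.5 on scaled counts. Folds carry an exact conditional (Clopper-Pearson) interval, and ratios of folds a conditional odds-ratio interval (scipy 1.17.1). No test across samples was possible. The code was tested on simulated data. Gene order came from the RefSeq table of GRCh38.p14 (98.6% of measured genes placed), and gene coordinates were not carried to hg19. Named genes are every member, called genes of the other transporters, and up to 3 highest and 2 lowest called genes per list by the interval bound nearest to 1. Members and lists were chosen with earlier results of these data known. Alternatives were other scalings, pseudocount, count minimums, thresholds, means and neighbour subtraction.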

Additional observations from a re-analysis of the deposited data

How the results depend on the processing

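Of 69 values for single transporters under the alternatives, 68 kept their direction and call and 0 lay below 0. The exception was SLC7A1 after subtraction of chromosomal neighbours (0.62). Much of this tally was fixed in advance. A change of count minimum leaves each value as it was, and a change of scaling shifts all genes by nearly the same small amount. Other fold thresholds are not in the tally, and SLC1A4 and SLC6A9 have no value in it at 100 counts. At a minimum of 100 counts, 5 transporters were called, since SLC1A4 was no longer tested. The median log2 ratio of the transporters was 1.01 after that subtraction, and their mean was 1.10. At 4-fold, 2 transporters were called. Over all measured genes, 1734 were higher and 1501 lower at 1.5-fold, and 292 and 67 at 4-fold. With at least 100 counts in a library, 356 were higher and 265 lower, since fewer genes were tested. Of 88 list medians under the alternatives, 15 moved by more than the counting error of a typical member, 8 of them on taking the mean. In 7 lists the value changed sign: on the mean, the other plasma membrane transporters (0.16), cystine use (0.41), glutamine and asparagine (0.26), arginine and polyamine (0.04), mTORC1 sensing (0.10) and glucose and monocarboxylate lists (0.48) lay above 0, and branched-chain breakdown was -0.01. The mTORC1 sensing list was also above 0 at 100 counts (0.14). No paired analysis was possible because each line has 1 library, and leaving out a library leaves no comparison. Counts were lowest for SLC1A4 and SLC6A9.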

Other observations

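The rest of the solute carrier superfamily was looked at by symbol, a choice made after the data were seen. Of 182 other measured SLC genes, 15 (8.24%) were called higher and 8 (4.40%) lower, near the shares over all measured genes, and their median log2 ratio was -0.05. The genes with the highest interval bounds were SLC16A6 (9 and 148 counts, 14.7-fold higher, 7.56 to 32.9) and SLC16A1, the lactate carrier MCT1 (8 and 86 counts, 9.64-fold higher, 4.68 to 23.0). Both met the count minimum through the RT-R library alone, so they could enter only as higher genes. Of the genes called lower, the mitochondrial ADP/ATP carriers SLC25A5 and SLC25A6 had the bounds furthest from 1. SLC25A5 had 5255 and 2825 counts, 2.07-fold lower (1.98 to 2.17). SLC25A6 had 7090 and 3935 counts, 2.01-fold lower (1.93 to 2.09). They are close copies of each other, so their reads may be divided uncertainly. By fold, others were lower, such as SLC38A4 (2.63-fold) and SLC25A43 (2.46-fold). Values after subtraction of chromosomal neighbours are not given for the ADP/ATP carriers or SLC25A43. The part of a shift of their chromosomal stretches in these lower ratios was therefore not tested. SLC25A6 was 1.95-fold lower under total counts and 1.96-fold under the upper quartile, which ended its call. Of 13 measured glucose and monocarboxylate transporters, 3 were called higher and 0 lower, with a median of -0.09 and a mean of 0.48. Of 18 ion and metal carriers, 0 were called in either direction, and their median was -0.25.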
